A study of Saccharomyces cerevisiae with 42 samples.

Results

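Of 7127 annotated genes counted in the budding yeast transcriptome, the 41 described here encode the nuclear-made parts of the respiratory chain and of the ATP synthase. They were listed by systematic name and not by an expression value, though earlier results of these data were known at that time. They fall into 6 groups: succinate dehydrogenase (4 genes), the NADH dehydrogenases (3), cytochrome c (2), complex III (9), complex IV (9) and the ATP synthase with its inhibitor (14). Transcripts were measured by RNA sequencing of the haploid laboratory strain BY4742, grown at 30°C in YPD, a rich medium with glucose. Precultures were diluted into fresh medium and grown for 2 h before the first harvest, called 0 h, and later samples were taken after 2, 4 and 6 h of further growth. By the labels, every culture was wild type and untreated and the groups differ in the hours of growth since dilution, with 24 libraries at 0 h and 6 at each later time.

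In the respiratory chain, succinate dehydrogenase and the NADH dehydrogenases pass electrons to ubiquinone, complex III passes them on to cytochrome c, and complex IV, or cytochrome c oxidase, hands them to oxygen. Complexes III and IV pump protons across the inner mitochondrial membrane, and the ATP synthase uses their return to make ATP. S. cerevisiae has no proton-pumping complex I, ferments glucose while it is plentiful and keeps many respiratory genes repressed until glucose runs low, partly through the CCAAT-binding Hap2/3/4/5 activator.

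Library totals ran between 4339150 and 31908031 counted reads (median 12150379). The slope of expression on gene length parted the libraries into 10 with a flat slope (0.117 to 0.366), in which short genes took more of the reads, and 32 with a steep one (0.551 to 0.743). The flat set held 7 libraries at 0 h, replicate 1 at 2 h, no library at 4 h and replicates 2 and 4 at 6 h, so each main edgeR fit carried the set as a term. The respiratory genes were short, with a median length of 455 bp against 1252.5 bp for all genes tested. At equal time the 39 tested members were higher in the flat set by a median log2 difference of 0.38. The share of all genes that differed between the sets was not counted, so this value does not set the members apart. The file headers gave 18 of the 24 libraries at 0 h another treatment name than the other 6, whose name matches that of the later libraries (header-matched). The culture number in the submitters' file names could serve as a block only over the 24 header-matched libraries, so the blocked values also rest on 6 libraries at 0 h, and where a call changed the value of those libraries without the block is given too. HXT1, a low-affinity glucose transporter induced by high glucose, had a log2 change of -3.33 (SE 0.24, adjusted p = 4.20e-15) at 6 h against 0 h. Of the auxotrophic markers, LEU2 had no read in any library and URA3 and LYS2 at most 1, while HIS3 had 490 to 2343 and MET17 932 to 5273 scaled counts (reads scaled to the average library). STE3, a receptor of MATalpha cells, had 3163 to 10201 scaled counts and STE2, a receptor of MATa cells, 47.5 to 195, whereas the methods name the strain MATa with met15 deleted.

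Respiratory transcripts were higher late in growth, and none of those tested was significantly lower. At 6 h against 0 h, 34 of 39 members tested rose and 0 fell in edgeR's quasi-likelihood test at a Benjamini-Hochberg adjusted p under 0.05, which is 87.2% of them, beside 32.8% of all 5416 genes tested that rose and 29.4% that fell. The median member change was 0.62 on the log2 scale, or 1.53-fold, against 0.02 for all genes. Among the tested members the increase was largest for the ATPase inhibitor INH1 (9.00-fold), followed by the subunit isoform COX5B (4.16-fold), and 9 members rose over 2-fold. NDE2 and CYC7 averaged 56.2 and 63.3 scaled counts, under the minimum of 75 for testing, and INH1 passed that minimum only through its later values. Without INH1 the count was 33 of 38. Scaled counts are reads relative to the other counted polyA RNA, so a change in RNA per cell, or in the share of cells that make a transcript, cannot be told apart from them.

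No member passed the test at 2 h, and 20 did at 4 h. At 2 h against 0 h, 0 of the 39 members rose or fell by edgeR or DESeq2 and 1 had an unadjusted p under 0.05, where 0.462% of all genes rose and 0.203% fell. The median member change was -0.04. At 4 h, 20 members rose and 0 fell, 51.3% of those tested, beside 21.2% of all genes that rose and 17.9% that fell, with a median change of 0.26. All 20 were also called at 6 h, with 14 more. Between 4 and 6 h, 20 members were higher at 6 h and 0 lower, beside 4.23% and 3.47% of all genes, and 38 of 39 had a positive change. These comparisons share libraries (0 h in the first 3, 4 h and 6 h in the last), so they are not independent. That last count depended on 1 library, since without replicate 5 at 6 h it was 13.

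**Figure D1:**
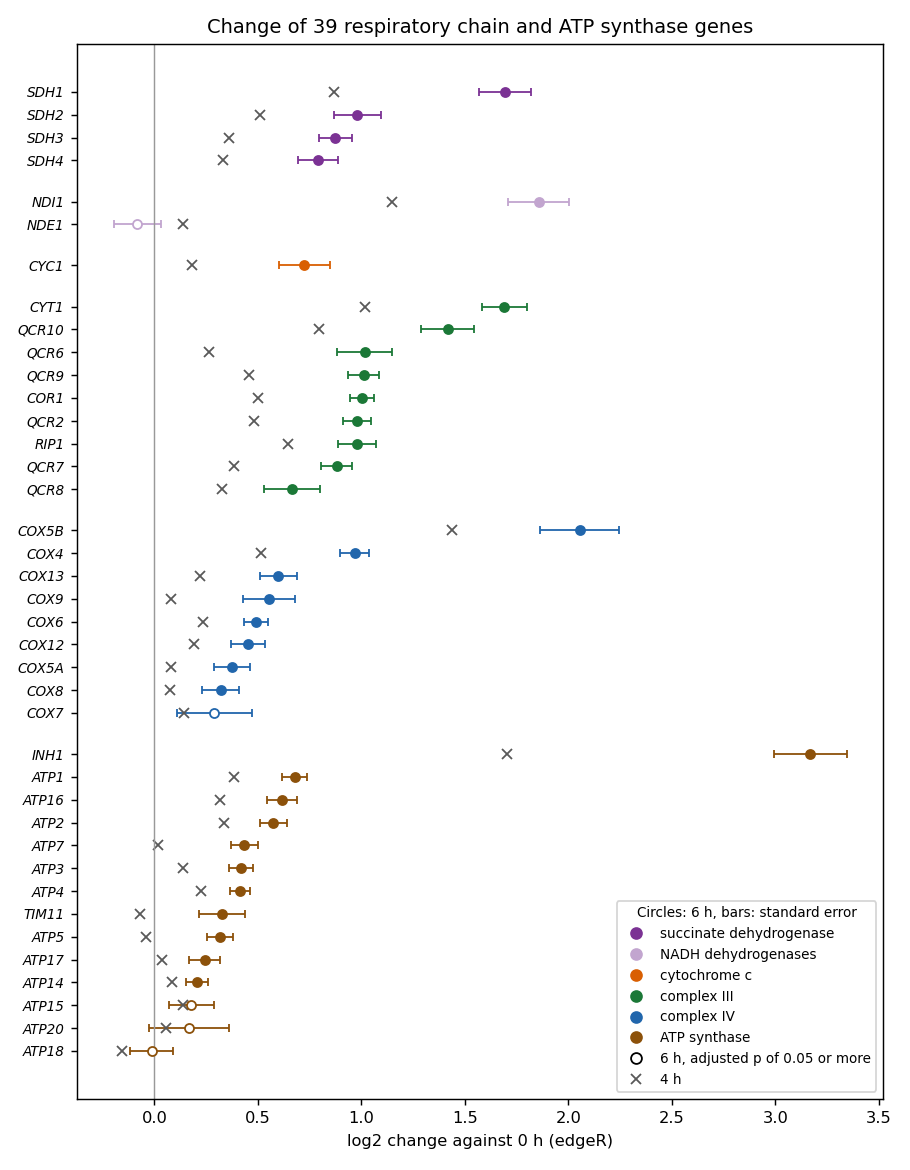
Fitted log2 change against 0 h of the 39 members tested, grouped by complex, with circles for 6 h (bars, standard error, filled where the adjusted p was under 0.05) and crosses for 4 h. INH1 lies farthest to the right at 3.17, and the open circles are NDE1, COX7, ATP15, ATP20 and ATP18.

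The median log2 change at 6 h was 1.00 in complex III (9 of 9 genes rose) and 0.93 in succinate dehydrogenase (4 of 4), but 0.49 in complex IV (8 of 9) and 0.37 in the ATP synthase (11 of 14). These medians are descriptions, and differences between the groups were not tested. At 4 h, all 4 succinate dehydrogenase genes and 7 of 9 complex III genes had risen, against 3 of 9 in complex IV and 5 of 14 in the ATP synthase. For 16 of the 39 members (41.03%), every library at 6 h lay above every library at 0 h, where 4.21% of all genes tested did so. They were SDH1, SDH2, NDI1, 7 of complex III, COX4, COX5B, COX6, ATP1, ATP2 and INH1. At 4 h, only CYT1, ATP2 and INH1 among the tested members did so, against 2.12% of all genes. Members of at least 500 bp had a median change of 0.83 at 6 h (n = 16) and shorter ones 0.55 (n = 23). The part of transcript length in this was not tested.

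**Figure D2:**
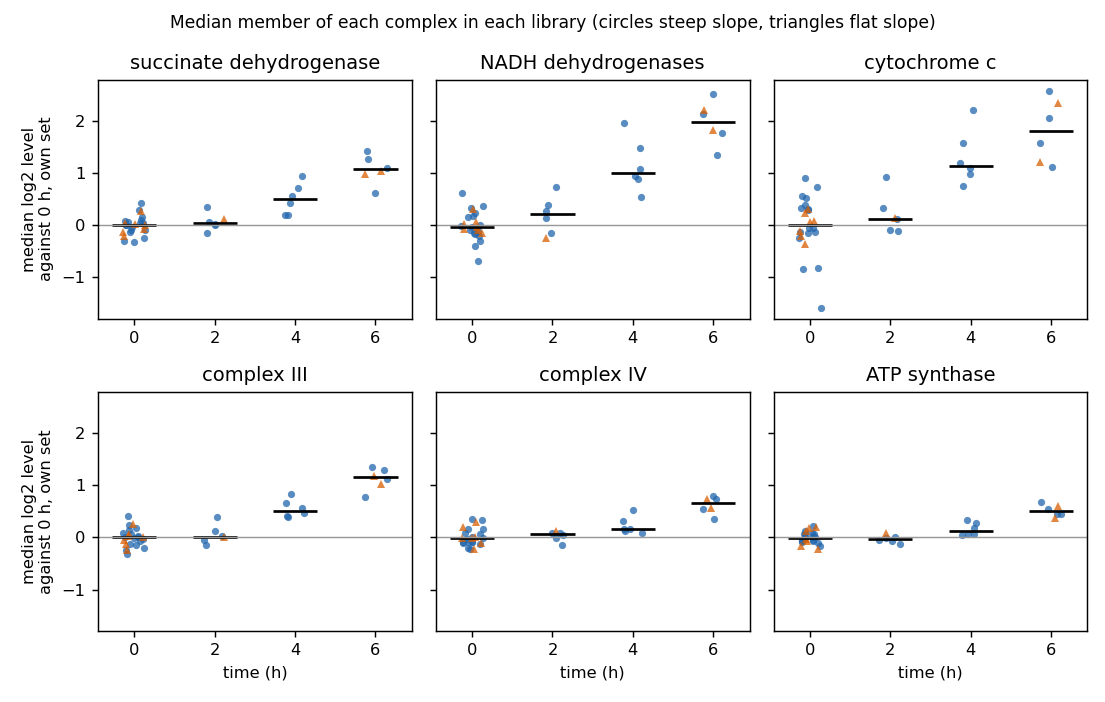
Median log2 level over the members of each complex in each library, relative to the mean of the libraries at 0 h in the same slope set (circles steep, triangles flat, bars the median of each time in hours). All 6 libraries at 6 h lie above all 24 at 0 h in every panel, with medians of 1.15 in complex III and 0.50 in the ATP synthase. The gap in complex IV is narrow (lowest at 6 h 0.358, highest at 0 h 0.353). Taken singly, 3 of 9 complex IV genes and neither cytochrome c gene lay so apart. Like medians over sets of other genes were not taken.

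The DNA before the genes shared a feature that their choice did not use. CCAAT, the core of the Hap2/3/4/5 site, stood on either strand (as CCAAT or ATTGG) within 300 bp before the start codon in 35 of 41 members (85.4%), against 41.8% of 6001 protein-coding genes. It was present in all 4 succinate dehydrogenase genes and all 14 ATP synthase genes, in 8 of 9 of complex IV, 7 of 9 of complex III, 2 of 3 NADH dehydrogenases and neither cytochrome c gene. The matches gathered in a narrow zone: 39.02% of members had one 250 to 200 bp before the start codon, against 9.00% of all genes. The 6 members without CCAAT within 300 bp were NDE2, CYC1, CYC7, CYT1, COR1 and COX4. Only exact matches were counted, so a variant of the Hap2/3/4/5 site in these genes would be missed. Within 500 bp it stood in 37 of 41 members (90.2%), against 62.4% of 6000 genes. COR1 (at -350 and -339) and CYC7 (at -453) had it in that longer window. The 35 tested members with CCAAT within 300 bp had a median log2 change of 0.58 at 6 h. The 4 without it there, COR1 among them, had 0.98, a difference that was not tested. The motif ATTGTT, searched on both strands, is the core of the site of the hypoxic repressor Rox1 and stood in 18 of 41 members (43.9%) against 34.1% of all genes. The Hap1 motif, a pair of CGG triplets around TA at fixed spacing, searched on both strands, matched only before QCR6, against 0.133% of all genes. No overlap between matches of the 3 motifs was removed.

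**Figure D3:**
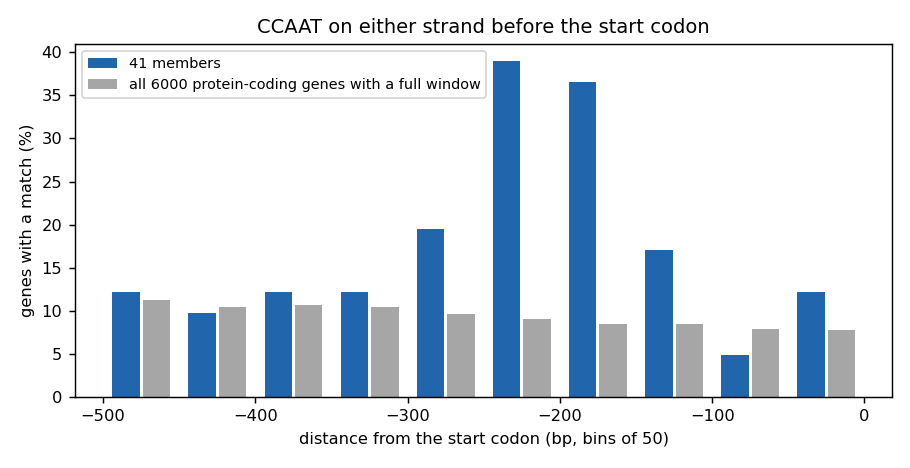
Percentage of genes with CCAAT on either strand in each 50 bp bin before the start codon (blue, 41 members; grey, 6000 protein-coding genes with a full 500 bp window). Members reach 39.02% and 36.6% in the bins from 250 to 150 bp before the start codon, where all genes have 9.00% and 8.48%.

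The stretch from 300 to 81 bp before the start codon is shown for the isoforms COX5A and COX5B, for INH1, which changed most of the tested members, and for CYC1, which has no CCAAT there. It is written on the plus strand of R64, on which all 4 genes lie, with CCAAT and ATTGG in capitals. COX5A has both forms and COX5B and INH1 1 each.
COX5A, chrXIV:531425-531644: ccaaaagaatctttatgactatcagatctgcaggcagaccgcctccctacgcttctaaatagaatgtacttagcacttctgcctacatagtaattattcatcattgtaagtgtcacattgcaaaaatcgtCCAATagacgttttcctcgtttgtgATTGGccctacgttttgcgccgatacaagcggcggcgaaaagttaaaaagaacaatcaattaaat
COX5B, chrIX:154922-155141: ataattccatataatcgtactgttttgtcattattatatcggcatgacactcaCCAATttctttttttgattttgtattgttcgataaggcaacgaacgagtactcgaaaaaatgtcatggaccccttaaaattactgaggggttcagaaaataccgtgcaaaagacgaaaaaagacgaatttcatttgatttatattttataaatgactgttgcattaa
INH1, chrIV:134879-135098: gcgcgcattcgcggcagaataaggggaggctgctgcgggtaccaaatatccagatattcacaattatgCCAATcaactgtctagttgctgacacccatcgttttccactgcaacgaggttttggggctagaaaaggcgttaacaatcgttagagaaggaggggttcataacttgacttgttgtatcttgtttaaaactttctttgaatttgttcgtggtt
CYC1, chrX:526035-526254: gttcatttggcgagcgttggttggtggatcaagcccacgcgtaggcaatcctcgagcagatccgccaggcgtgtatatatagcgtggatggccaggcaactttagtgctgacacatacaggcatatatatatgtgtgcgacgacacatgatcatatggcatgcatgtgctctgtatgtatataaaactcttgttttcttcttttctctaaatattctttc

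Succinate dehydrogenase, which belongs to both the citric acid cycle and the respiratory chain, rose as a whole. SDH1, its flavoprotein (YKL148C, chrXI:169207-171129, R64-1-1), had 589 to 1188 scaled counts (median 845) at 0 h. It had 831 to 1294 (median 943) at 2 h, then 1179 to 2422 (median 1592) at 4 h, and 1567 to 4279 (median 3149) at 6 h. The 6 libraries at 6 h all lay above the 24 at 0 h, while those at 4 h overlapped them slightly. The log2 change in edgeR's quasi-likelihood test was 1.69 (SE 0.12, adjusted p = 5.12e-15) at 6 h and 0.87 (SE 0.14) at 4 h. SDH2, the iron-sulfur subunit, and the membrane subunit SDH3 rose by 0.98 and 0.87 at 6 h. SDH4, the other membrane anchor, changed least, with 531 to 841 (median 680) at 0 h, 538 to 852 (median 670) at 2 h, 686 to 1096 (median 893) at 4 h, and 780 to 1623 (median 1339) at 6 h. Its groups at 6 h and 0 h overlapped, and its log2 change was 0.79 (SE 0.09, adjusted p = 2.74e-09) at 6 h. At 4 h it was 0.33 (adjusted p = 0.00823), a call lost without replicate 4 at 4 h (0.25, adjusted p = 0.0637), with the header-matched libraries (0.31, adjusted p = 0.172, and 0.29, adjusted p = 0.184 with the culture block) and with the title numbers as a block (0.34, adjusted p = 0.0766).

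The 3 NADH dehydrogenases, single-subunit enzymes that stand in for complex I, differed from each other. NDI1, which faces the matrix (YML120C, chrXIII:28266-29807), had 498 to 1367 scaled counts (median 758) at 0 h, 697 to 1336 (median 930) at 2 h, 1170 to 3142 (median 1674) at 4 h, and 2044 to 4596 (median 3078) at 6 h. Its libraries at 6 h lay clear of those at 0 h, with a log2 change of 1.86 (SE 0.15, adjusted p = 4.61e-14). NDE1, which oxidises cytosolic NADH from the outer face of the inner membrane, stayed high at all times, with 4135 to 9080 (median 6548) at 0 h, 4159 to 7707 (median 6732) at 2 h, 6483 to 11526 (median 7303) at 4 h, and 3811 to 7263 (median 6981) at 6 h. Its groups overlapped fully, and its log2 change at 6 h was -0.08 (SE 0.11, adjusted p = 0.543). Scaled by library totals alone, the sign of that value turned. NDE2, the second external enzyme, was scarce, with 4.86 to 36.2 (median 18.8) at 0 h, 12.1 to 36.2 (median 32.8) at 2 h, 29.9 to 158 (median 72.6) at 4 h, and 136 to 320 (median 186) at 6 h. Every library at 6 h was above every library at 0 h, from 98 to 404 raw reads at 6 h and 4 to 41 at 0 h. In a fit with no minimum count, chosen because NDE2 was below it, the log2 change was 3.44 (SE 0.22, adjusted p = 7.02e-17) at 6 h and 2.08 at 4 h.

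All 9 complex III genes rose. CYT1, the cytochrome c1 subunit that hands electrons to cytochrome c (YOR065W, chrXV:447439-448368), had 356 to 872 scaled counts (median 537) at 0 h, 464 to 842 (median 565) at 2 h, 907 to 1374 (median 994) at 4 h, and 1416 to 2275 (median 2109) at 6 h. It was 1 of the 3 members whose lowest library at 4 h already exceeded the highest at 0 h. Its log2 change was 1.02 (SE 0.12) at 4 h and 1.69 (SE 0.11, adjusted p = 9.27e-17) at 6 h. The core proteins COR1 and QCR2 rose by 1.00 and 0.98, with small errors (0.06 and 0.07), and RIP1, the Rieske iron-sulfur protein, by 0.98. Of the small subunits, QCR10 rose by 1.42, QCR6 by 1.02, QCR9 by 1.01 and QCR7 by 0.88. QCR6 had a single high value, 4521 scaled counts in replicate 2 at 6 h against 1153 to 2080 in the other 5, and a change of 0.73 without that library. QCR8 changed least, with 405 to 1008 (median 622) at 0 h, 411.02 to 714 (median 560) at 2 h, 623.5 to 1183 (median 783) at 4 h, and 736 to 1762 (median 1114) at 6 h. Its times overlapped, with a log2 change of 0.67 (SE 0.14, adjusted p = 5.03e-05) at 6 h. At 4 h QCR8 did not pass in the main fit (0.33, adjusted p = 0.0656). It passed with the header-matched libraries (0.50, adjusted p = 0.0426) and with the culture block over them (0.47, adjusted p = 0.0377). Over all libraries it passed with the slope as a continuous term (0.40, adjusted p = 0.0160). Without replicate 3 or 6 at 4 h it also passed (0.38 and 0.39, adjusted p = 0.0414 and 0.0391).

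QCR9 and QCR10 are the only members with an intron in the annotation of the deposited counts, of 213 and 63 bp. COX5B has none there, but it starts at 155222 in RefSeq and at 155311 in that annotation. The bases between these starts were not counted, so splicing of COX5B could not be examined. The QCR10 intron is printed on the plus strand, with the start and end of the intron and the branch point motif TACTAAC in capitals.
QCR10 intron, chrVIII:107832-107894: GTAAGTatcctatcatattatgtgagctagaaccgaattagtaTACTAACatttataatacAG
The splice ratio, 1 minus intron reads per base over exon reads per base, averaged 0.898, 0.884, 0.906 and 0.913 for QCR9 at 0, 2, 4 and 6 h. For QCR10 it averaged 0.970, 0.950, 0.971 and 0.968. Of 6 two-sided exact permutation tests against 0 h, none passed (adjusted p = 0.979 for each, unadjusted p of 0.200 or more). QCR10 had a median of 1 to 6 intron reads per library, so small differences were not detectable at this depth.

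Both cytochrome c genes encode the mobile carrier between complexes III and IV, CYC1 the main form and CYC7 the minor one. CYC1 (YJR048W, chrX:526335-526664) had 122 to 340.6 scaled counts (median 220.9) at 0 h, 172 to 325 (median 230) at 2 h, 164 to 307 (median 230) at 4 h, and 323 to 628 (median 395) at 6 h. It rose at 6 h, by 0.72 (SE 0.12, adjusted p = 3.37e-06), and at 4 h its log2 change did not pass, at 0.18 (SE 0.14, adjusted p = 0.301). CYC7 had 2.43 to 62.9 (median 23.8) at 0 h, 16.0 to 44.8 (median 21.8) at 2 h, 36.8 to 317 (median 72.3) at 4 h, and 50.97 to 357 (median 151) at 6 h. In the fit with no minimum count it changed by 2.37 at 4 h and 2.73 (SE 0.33, adjusted p = 3.00e-09) at 6 h, and both passed. Libraries of 1 time differed widely in CYC7.

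Within complex IV the largest rise was that of an isoform. COX5A and COX5B encode alternative forms of subunit V, of which COX5B is known as the hypoxic one, used when oxygen is low. COX5B (YIL111W, chrIX:155311-155765) had 145 to 655 scaled counts (median 337) at 0 h, 213 to 599 (median 322) at 2 h, 483.4 to 1234 (median 818) at 4 h, and 783 to 2804 (median 1495) at 6 h. Its libraries at 6 h lay above all those at 0 h, with a log2 change of 2.06 (SE 0.19, adjusted p = 4.00e-12) at 6 h and 1.44 (SE 0.21) at 4 h. COX5A (YNL052W, chrXIV:531725-532186) had 628 to 1094 (median 870) at 0 h, 806 to 951 (median 878) at 2 h, 886 to 965.4 (median 923) at 4 h, and 930 to 1455 (median 1213) at 6 h. Its groups overlapped and its log2 change was 0.38 (SE 0.09, adjusted p = 0.000268) at 6 h. With the header-matched libraries COX5A had 0.22 (adjusted p = 0.0582), and 0.22 (adjusted p = 0.0601) with the culture block over them, so that call was lost with and without the block.

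The other complex IV subunits had changes of 0.29 to 0.97 at 6 h. COX4, a zinc-binding subunit, rose by 0.97 at 6 h, COX13 by 0.60, COX9 by 0.55, COX6 by 0.49, COX12 by 0.45 and COX8 by 0.32, all small subunits made in the cytosol. COX9 had 2382 scaled counts in replicate 2 at 6 h, where the other 5 libraries had 722 to 1007, and its change was 0.28 without that library. With the header-matched libraries COX9 changed by 0.40 with an adjusted p of 0.0790. COX7, a small membrane subunit, had 97.7 to 523 (median 302) at 0 h, 218 to 300.6 (median 272) at 2 h, 286 to 469 (median 316) at 4 h, and 274 to 531 (median 358) at 6 h. Its groups overlapped, and its log2 change of 0.29 (SE 0.18, adjusted p = 0.163) at 6 h did not pass, though it did with the header-matched libraries (0.52, adjusted p = 0.0113) and with the culture block over them (0.55, adjusted p = 0.00305).

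The balance within the isoform pairs moved. Ratios were taken per kilobase within a library and compared with 0 h by two-sided exact permutation tests, 9 in all. COX5A exceeded COX5B in all 24 libraries at 0 h and all 6 at 2 h, but in 4 of 6 at 4 h and 2 of 6 at 6 h, with median ratios of 2.75, 2.64, 1.13 and 0.805. In the steep libraries alone the median ratio was 3.33 at 0 h and 0.963 at 6 h, where COX5A was higher in 2 of 4. In the flat libraries it was 1.98 at 0 h and 0.605 at 6 h. Over all libraries the ratio at 6 h was 0.302-fold that at 0 h (log2 difference -1.73, exact permutation, adjusted p = 1.52e-05). At 4 h it was 0.435-fold (-1.20, exact permutation, adjusted p = 0.000178). At 2 h the difference was -0.09 (exact permutation, adjusted p = 0.753). CYC1 over CYC7 had median ratios of 10.2, 9.99, 3.03 and 2.83 at 0, 2, 4 and 6 h, and log2 differences from 0 h of -2.10 at 4 h and -1.90 at 6 h (exact permutation, adjusted p = 0.000367 and 0.000493). NDE1 over NDE2 had median ratios of 312, 208, 108 and 28.2, and all 12 libraries at 4 and 6 h lay below every library at 0 h. Its log2 differences were -0.72 at 2 h (exact permutation, adjusted p = 0.0185), then -1.67 at 4 h and -3.55 at 6 h, both at the smallest p these permutations can give (1.68e-06, adjusted p = 7.58e-06). Within the steep libraries alone, the log2 differences at 6 h were -1.68 for COX5A over COX5B, -1.87 for CYC1 over CYC7 and -3.52 for NDE1 over NDE2, and each passed. CYC7 and NDE2 had as few as 2 and 4 reads in a library at 0 h, so the highest ratios there are imprecise.

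**Figure D4:**
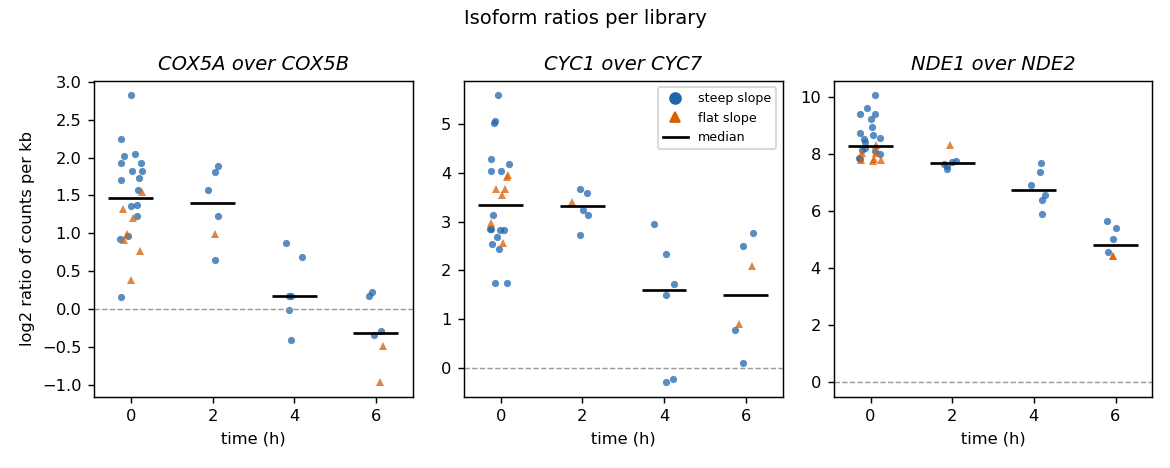
Log2 ratio of counts per kilobase of the 3 isoform pairs in each library against time in hours (circles steep slope, triangles flat slope, bars medians, dashed line equal levels). COX5A over COX5B falls below the dashed line in 4 of 6 libraries at 6 h, and NDE1 stays above NDE2 throughout.

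Among the tested members, the ATP synthase genes held both the largest and some of the smallest changes. INH1 encodes a small protein that blocks the hydrolysis of ATP by the enzyme (YDL181W, chrIV:135179-135436). It had 27.2 to 81.1 scaled counts (median 43.1) at 0 h, 44.2 to 131 (median 69.2) at 2 h, 109 to 193 (median 156) at 4 h, and 242 to 842 (median 397) at 6 h. Libraries at 4 and 6 h all lay above those at 0 h. The log2 change was 0.70 (SE 0.21, adjusted p = 0.0896) at 2 h, 1.70 (SE 0.20, adjusted p = 1.50e-08) at 4 h and 3.17 (SE 0.17, adjusted p = 8.12e-19) at 6 h. At 2 h it was the only member with an unadjusted p under 0.05, and it passed when the flat libraries were left out (0.79, adjusted p = 0.0386). Mean counts per kilobase of INH1 were 8.98%, 15.1%, 22.2% and 51.6% of those of ATP1 at 0, 2, 4 and 6 h.

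The catalytic subunits ATP1 and ATP2, the alpha and beta chains of the F1 head, rose by 0.68 and 0.58 at 6 h, and both had risen at 4 h (0.39 and 0.34). ATP1 overlaps YBL100C on the opposite strand. Of the stalk subunits, ATP16 (delta) rose by 0.62 and ATP3 (gamma) by 0.42, and ATP15 (epsilon) had 0.18 (adjusted p = 0.156). The stator subunits ATP7, ATP4, ATP5 and ATP14 rose by 0.44, 0.41, 0.32 and 0.21. ATP14 shares 32 bp with YLR294C on its own strand, so its counts are uncertain there. In the membrane part the changes were 0.33 for TIM11, 0.24 for ATP17, 0.17 for ATP20 and -0.01 for ATP18. TIM11, needed for pairs of ATP synthases to form, and ATP17 rested on replicate 2 at 6 h. Without it they had 0.06 (adjusted p = 0.533) and 0.16 (adjusted p = 0.0575), whereas ATP15 had 0.31 (adjusted p = 0.00609). ATP15 also passed in the steep libraries alone (0.31, adjusted p = 0.0159), by library totals (0.30, adjusted p = 0.0345) and with the slope as a continuous term (0.31, adjusted p = 0.0272). ATP20, another dimer subunit, did not pass over all libraries (adjusted p = 0.457) but did in the steep libraries alone (0.29, adjusted p = 0.00780), with the header-matched libraries (0.49, adjusted p = 0.0396) and with the culture block over them (0.46, adjusted p = 0.0288). ATP18 had 352 to 1184 scaled counts (median 541) at 0 h, 388 to 1208 (median 465) at 2 h, 397 to 559 (median 456) at 4 h, and 408 to 1294 (median 624) at 6 h, and its highest values were those of flat libraries. Its flat libraries exceeded its steep ones by 1.28 on the log2 scale, the largest set difference of the members, and the sign of its change turned with several settings.

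**Figure D5:**
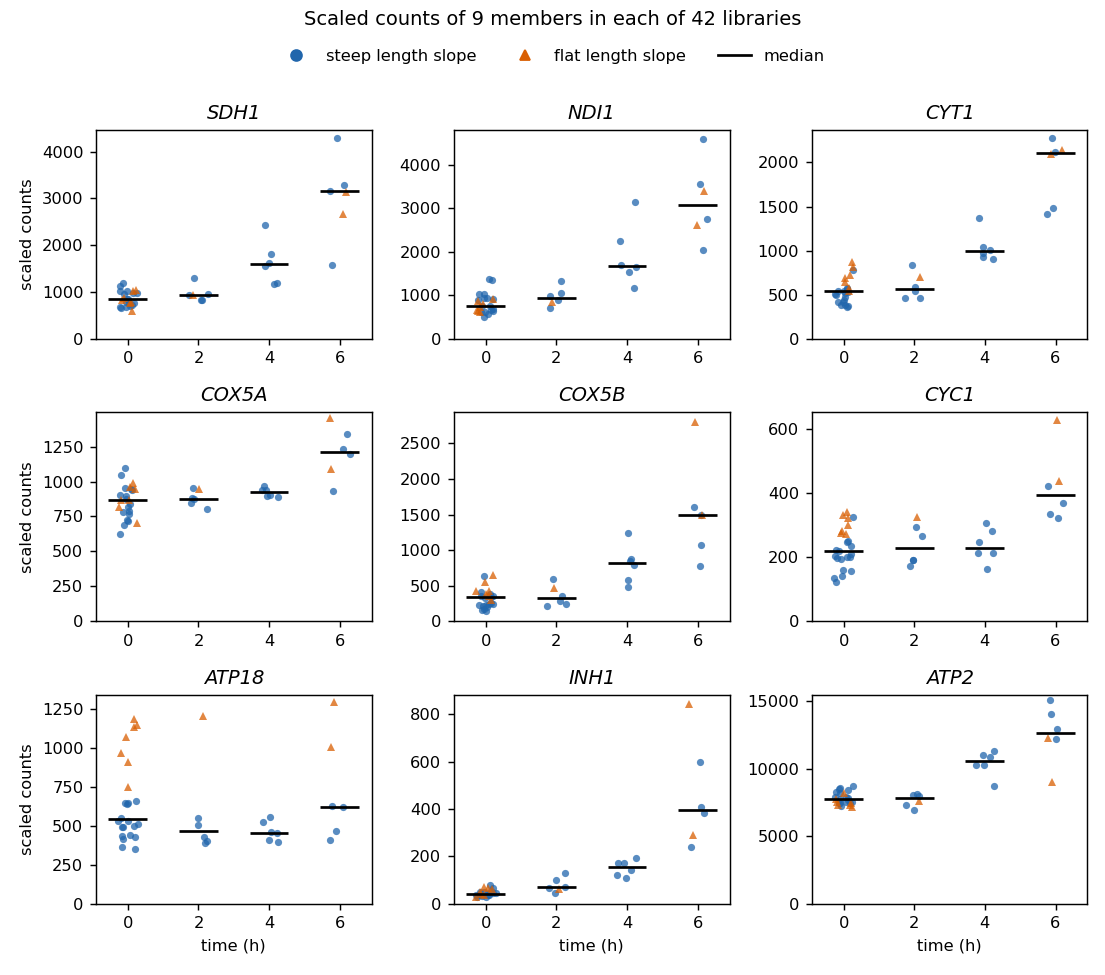
Scaled counts of 9 members in all 42 libraries against time in hours, on linear axes that start at 0 (circles steep slope, triangles flat slope, bars medians). SDH1, NDI1, CYT1, COX5B, INH1 and ATP2 have all libraries at 6 h above those at 0 h, and the highest ATP18 values are flat libraries.

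Compared per length, ATP2 was the most abundant member, with a mean of 8218 scaled counts per kilobase at 6 h and 5084 at 0 h, and NDE2 the least, with 130 at 6 h and 11.2 at 0 h. COX5B ranked 14th of 41 with 3392 at 6 h and 32nd with 730 at 0 h, while COX5A had 2613 at 6 h and 1857 at 0 h. These means carry the share of flat libraries at each time.

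The subunits made in mitochondria (COX1, COX2, COX3, COB, ATP6, ATP8 and OLI1) had 0 counts in every library, as did all 55 mitochondrial genes in the annotation, so the balance between both genomes was not analysed here. Among 8 regulators, 5 rose and 0 fell at 6 h, beside 32.8% and 29.4% of all genes tested. HAP4, the activating subunit of the CCAAT-binding complex, had medians of 1696, 2764, 6465 and 7579 scaled counts at 0, 2, 4 and 6 h, and log2 changes of 2.11 at 4 h and 2.08 (SE 0.24, adjusted p = 7.94e-10) at 6 h. Its DNA-binding partners HAP2 and HAP5 rose by 0.56 and 0.51, and HAP3 had 0.06 (adjusted p = 0.735), with a negative sign in the steep libraries alone. HAP5 was lost with the header-matched libraries (0.28, adjusted p = 0.110) and with the culture block over them (0.32, adjusted p = 0.0532). The heme-responsive activator HAP1 rose by 0.39, a call lost without replicate 5 at 6 h (0.27, adjusted p = 0.0838), and the repressor ROX1 by 0.49. MOT3 and IXR1, also linked to hypoxic genes, had 0.13 and 0.05, with adjusted p of 0.452 and 0.580.

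The genes that build the complexes had 0 members that fell, and the shares to read their counts against are again 32.8% and 29.4% of all genes tested. Of 21 complex IV assembly genes, 20 rose and 0 fell at 6 h (median 0.64), from 1.11 for COA2 to -0.06 for COX19 (adjusted p = 0.706), which did not pass and had a positive sign by library totals alone. Of 12 genes for complex III and cytochrome c maturation, 8 rose (CBP4 0.67, CYC3 -0.01, not significant and of changing sign), as did 7 of 11 ATP synthase assembly genes, a count of 4 with the title numbers as a block (NCA2 0.62, ATP10 -0.02, likewise) and the 3 tested genes for succinate dehydrogenase assembly (SDH5 0.68, SDH8 0.57). SDH8 changed by 0.32 without replicate 2 at 6 h. Among further subunits and associated proteins, 7 of 8 tested rose, led by STF1, a relative of INH1, at 2.32, and RCF2, a supercomplex factor, had -0.28 (adjusted p = 0.0650). RCF2 passed without replicate 2 at 6 h (-0.54, adjusted p = 0.000169), in the steep libraries alone (-0.54, adjusted p = 0.000920), in DESeq2 (-0.31, adjusted p = 0.0314) and with the culture block (-0.35, adjusted p = 0.0365), but not with the header-matched libraries alone (-0.32, adjusted p = 0.138). Of 11 ubiquinone synthesis genes 7 rose and 1 fell, with COQ1 at 0.64 and COQ10 at -0.47.

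Of 8 heme synthesis genes, 2 rose and 2 fell, shares near those of all genes tested (32.8% and 29.4%). HEM13, an oxygen-dependent step, fell by 1.41 and HEM3 by 0.30, and HEM14, the step after HEM13, rose by 0.26 and HEM4 by 0.21. HEM14 had 0.20 with the header-matched libraries (adjusted p = 0.118) and 0.23 with the culture block over them (adjusted p = 0.0558). Of 6 carriers, 5 rose, the copper and phosphate carrier PIC2 by 1.12, and AAC3, the hypoxic ADP/ATP carrier, fell by 1.27. Without replicate 5 at 6 h PIC2 had 0.80 (adjusted p = 0.0558). Of the 6 hypoxic genes tested, COX5B alone rose, and TIR1, HEM13, AAC3 and ANB1 fell, by 1.44, 1.41, 1.27 and 0.96. CYC7, on the same list but under the minimum for testing, rose by 2.73 at 6 h in the fit with no minimum count.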

How the data were processed

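The authors polyA-selected RNA, made stranded libraries and deposited gene-level and exon-level read counts, raw and not normalised. Per the labels and the submitters' processing notes, the tools included STAR, StringTie and featureCounts 2.0.3, with build R64-1-1 and Ensembl release 106. All 84 count files were read, 2 for each of 42 libraries, and no value column was left unused. Members and gene lists were chosen with earlier results of these data known.

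Counts were scaled to the average library (13900104 reads). Genes with a mean of at least 75 scaled counts (5416) were fitted in edgeR 4.0.16 (R 4.3.3) with TMM factors, terms for time and for slope set over all 42 libraries, and the quasi-likelihood test, with Benjamini-Hochberg adjustment over all genes tested and a threshold of 0.05. The sets were split at the largest gap (0.185, next 0.065) between the slopes of log2 CPM on log2 length over 4976 genes. The labels call the libraries of a time biological replicates, and p-values measure the spread between them. The main fit and the permutation tests took all libraries as independent and unpaired. Culture numbers in the submitters' file names recur among the 24 libraries at 0 h. Whether libraries with the same number share a culture is not stated, and the p-values of these tests do not allow for it. No pair of libraries of 1 time agreed within sampling noise (321 pairs, lowest chi-square per degree of freedom 9.02). DESeq2 1.42.0 was an alternative. The edgeR and permutation steps were tested on simulated data.

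Isoform ratios had 0.5 added to each count and were compared over all 593775 splits of 24 and 6 libraries (enumerated with numpy 2.4.6). Intervals of counting error are not given, as reads carry no molecular identifiers. Replicate numbers in the titles did not pair libraries across times. Culture numbers in the submitters' file names did at 2 h (r of 0.139 to 0.676 between deviations from the group means) and 6 h (0.12 to 0.479), and the blocked fit used the 24 libraries with matching headers, 6 of them at 0 h. Members with per-time values were the isoform pairs, the most and the least changed member of each complex, INH1 and, chosen after its values were seen, NDI1. All regulators and the extremes of each other list were named, and ANB1, HEM3 and HEM4 after their values were seen. Promoter windows came from the RefSeq R64 sequence, in which 40 of 41 members had the coordinates of the count files. COX5B starts at 155222 there and at 155311 in the files, and its window was taken from 155222.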

Additional observations from a re-analysis of the deposited data

Results flagged for a closer look

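Within groups of 6 libraries, 18 of 132 sets of member values held a library that stood far apart from the other 5 (Dixon's ratio over 0.625). Independent normal values give about 1 in 20, but these sets share the same libraries. The share over all genes tested was not counted, so the count does not set the members apart. Of the 18, 12 were libraries of the flat slope set, and 8 were replicate 1 at 2 h. That library was lowest in NDE1 (4159 scaled counts, others 6451 to 7707), NDE2 (12.1, others 28.2 to 36.2) and ATP20 (223, others 295 to 337). It was highest in COX13 (855, others 482.2 to 617), ATP15 (986, others 507 to 680), ATP16 (1144, others 633 to 752) and ATP18 (1208, others 388 to 548). Its log2 ratio of NDE1 over NDE2 was also the highest, 8.33 against 7.48 to 7.77. The low genes include the long NDE1 and NDE2 but also ATP20, of 348 bp, and the high ones are under 500 bp. The part of the flat slope in these values was not tested.

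Replicate 2 at 6 h, also flat, was highest in QCR6 (4521, others 1153 to 2080), COX9 (2382, others 722 to 1007) and TIM11 (1712, others 519 to 751). Replicate 4 at 6 h, flat as well, was lowest in NDE1 (3811, others 6812 to 7263). In steep libraries, replicate 4 at 2 h was highest in SDH1 (1294, others 831 to 958). Replicate 1 at 4 h was highest in CYT1 (1374, others 907 to 1036), QCR10 (578, others 326 to 407) and COX13 (849, others 602 to 679). Replicate 2 at 4 h was highest in ATP7 (1531, others 1134 to 1249), and replicate 3 at 6 h in COX6 (1092, others 807 to 905).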

How the results depend on the processing

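The count of members that rose at 6 h was 30 to 36 over the alternatives and 33 to 34 without each replicate at 6 h, and at 4 h it was 15 to 25 and 19 to 21, with 0 falling in any of them. At 2 h it was 1 (INH1) in the steep libraries alone and with the slope as a continuous term, which was added after seeing the data. Between 4 and 6 h it was 12 with only the 6 libraries at 0 h whose header matches the later ones (header-matched), and 13 to 26 without single replicates. With the culture numbers as a replicate block, which also limits the fit to the header-matched libraries, the counts were 35, 21, 0 and 19 (6, 4 and 2 h against 0 h, and 6 h against 4 h), and with the title numbers 30, 15, 0 and 17. The culture block changed no other call at 6 h among the members and named list genes than those given with it, SDH4 and QCR8 at 4 h included. At 4 h the culture numbers gave r of -0.019 to 0.607 and the title numbers -0.446 to 0.655.

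The CYC1 over CYC7 difference at 2 h was 0.22 with the header-matched libraries, paired or not, and that of COX5A over COX5B lay between -0.20 and 0.048 without single replicates. These values and those below missed the threshold except where given, and their causes were not tested. At 6 h, NDE1 was 0.023 by library totals. ATP18 was 0.071 without the set term, 0.095 by totals, 0.0013 with at least 75 counts in every library, 0.054 with the header-matched libraries, 0.067 with the culture block, 0.17 with the continuous slope and -0.075 to 0.048 without single replicates. ATP10 was 0.011 without the set term, 0.23 in steep libraries (adjusted p = 0.0281), 0.099 by totals and -0.091 to 0.14 without single replicates. COX19 was 0.053 by totals and -0.17 to 0.046 without single replicates. CYC3 was 0.16 without the set term, 0.099 by totals, 0.011 with the stricter minimum, 0.061 with the title block, 0.063 with the continuous slope, and -0.27 to 0.073 without single replicates. HAP3 was -0.071 in steep libraries, -0.086 with the header-matched libraries, -0.072 with the culture block and -0.13 to 0.13 without single replicates, and IXR1 was -0.0096 to 0.091. Calls at 6 h also ended with the title block for COX8, ATP14, ATP17, TIM11, HAP1, HEM14 and PIC2 (0.23, 0.13, 0.17, 0.21, 0.32, 0.25 and 0.95), and with the header-matched libraries for COX5A, TIM11, HAP1, HAP5 and HEM14 (0.22, 0.36, 0.29, 0.28 and 0.20). They ended without the set term for TIM11 and HAP1 (0.45 and 0.35) and in steep libraries for ATP17, TIM11 and HAP1 (0.15, 0.10 and 0.35). At 4 h the header-matched libraries ended those of SDH4 and ATP2 (0.31 and 0.28).

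Over the alternatives the list counts that rose at 6 h were 3 to 5 for regulators (3 with the header-matched libraries), 14 to 20 for complex IV assembly, 4 to 8 for ATP synthase assembly, 2 to 5 for carriers (2 with the header-matched libraries), 5 to 8 for ubiquinone synthesis and 0 to 2 for heme synthesis, of which 1 to 4 fell. The minimum of 75 counts in every library, which tests fewer genes, gave 5 for complex III and cytochrome c maturation, 3 for further subunits, 2 for succinate dehydrogenase assembly and 2 hypoxic genes that fell.

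Over all genes, 1047 fell at 6 h without the set term against 1593 with it. At 4 h, 540 to 1317 rose against 1147 and 388 to 1087 fell against 967. At 2 h, 1 to 89 rose and 0 to 49 fell. Between 4 and 6 h, 132 to 351 rose and 59 to 270 fell. Library totals alone moved the median of all genes by 0.13 on the log2 scale at 6 h. Depth limited NDE2, CYC7 and INH1 at 0 h, with as few as 4, 2 and 11 reads in a library.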
